A study of Homo sapiens with 4 samples.

Results

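K562 cells given vesicles named S-Exo were compared with parental K562 cells labelled NC, read here as cells not given vesicles. The time given was 48 h for both. The members are the 1269 genes that carry an Ensembl identifier and reached 1 FPKM or more in either library. FPKM is a fragment number divided by the length of the gene model and by the library's mapped total, so it can be compared between genes. The members were taken by this rule from a deposited table of 3200 rows, of which 2288 had such an identifier. Just above the minimum lay ARSG, at most 1.004 FPKM in either library, and just below it PARD6G, at most 0.996 FPKM.

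K562 is an established human line of chronic myeloid leukaemia with erythroid features, driven by the BCR-ABL fusion kinase. The parental library came from the wild-type line under the treatment label NC, which the labels do not spell out. The S-Exo library came from the same line under the label S-Exo treatment, and the series description calls it the control of the cells given R-Exo. S-Exo is read here as exosomes of imatinib-sensitive cells. The labels give no vesicle dose and no donor culture. Both cultures were kept in RPMI medium with serum. The table also holds a library of the imatinib-resistant derivative K562/IMR, labelled NC, and a library of K562 cells given R-Exo, used here only for reference. Each group had 1 library, so differences are given as sizes, with no replicate error to judge them by. The labels repeat the treatment in the genotype field of the S-Exo library and give peripheral blood as the tissue of the line.

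Exosomes are small membrane vesicles that form inside endosomes and are released when these fuse with the cell surface. They carry proteins, lipids and RNA that a recipient cell can take up. Vesicles from drug-sensitive cells are used as a control for the uptake of vesicles as such.

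The table is one of genes that the authors had named as differentially expressed, so its members are not a sample of all genes. Of the 1269 members, 1187 had a ratio of 2 or more, after 0.01 was added to both values, between one of the parental and S-Exo libraries and one of the resistant and R-Exo libraries. In 87 members the S-Exo and parental libraries themselves differed by that ratio, and in 3 members this was the only pair that did. The members' FPKM summed to 19276 in parental and 19225 in S-Exo. Their median was 3.74 FPKM in parental and 3.90 FPKM in S-Exo.

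Markers of K562 named here had similar levels in both libraries. Of 12 marker genes of K562, 4 were in the table. HBZ, the embryonic zeta-globin gene, had 480 FPKM in parental and 533 FPKM in S-Exo. The transferrin receptor gene TFRC had 224 and 214 FPKM. HBZ shares 27.15% of its exonic bases with HBM, and 47.7% of its 31-base stretches occur in other genes. The listed lymphoid markers, 2 of 6, summed to 0.974 FPKM in parental and 1.304 FPKM in S-Exo. The listed fibroblast markers, also 2 of 6, summed to 0.246 and 0.192 FPKM, and COL1A2 was listed at 0 in both. None of the 5 macrophage markers was in the table.

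Most members had nearly the same level in the S-Exo and the parental library. The difference of a gene was taken as log2 of (FPKM + 1) in S-Exo minus the same in parental, a scale on which low-level genes show less than their full ratio. The median difference over the 1269 members was -0.0014, with quartiles of -0.13 and 0.14. It was smaller than 0.5 in either direction in 1152 members (90.8%). At a limit of 1, a factor of 2 on this scale, 25 members (1.97%) were counted as higher in S-Exo and 15 (1.18%) as lower. A member listed at 0 in one library is past this limit by construction, and this applied to 7 of the higher and 3 of the lower genes. Just inside the limit lay AL031281.2 at 1.01 and BSCL2 at -1.02, and just outside it AC068580.4 at 0.996 and TVP23C at -0.98. These are bulk libraries, in which fewer cells of a kind and less RNA per cell cannot be told apart.

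The spread of the differences depended on level. Among the 388 members with a mean under 2 FPKM, 85.3% differed by less than 0.5. Among the 245 members between 10 and 50 FPKM 96.3% did, and among the 66 members above 50 FPKM 92.4% did. Among the members that were neither set apart nor near-copies by the rules given next, these shares were 91.5%, 99.1% and 96.6%. The depth of the libraries is unknown, so the part of counting error in this spread was not tested.

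**Figure D1:**
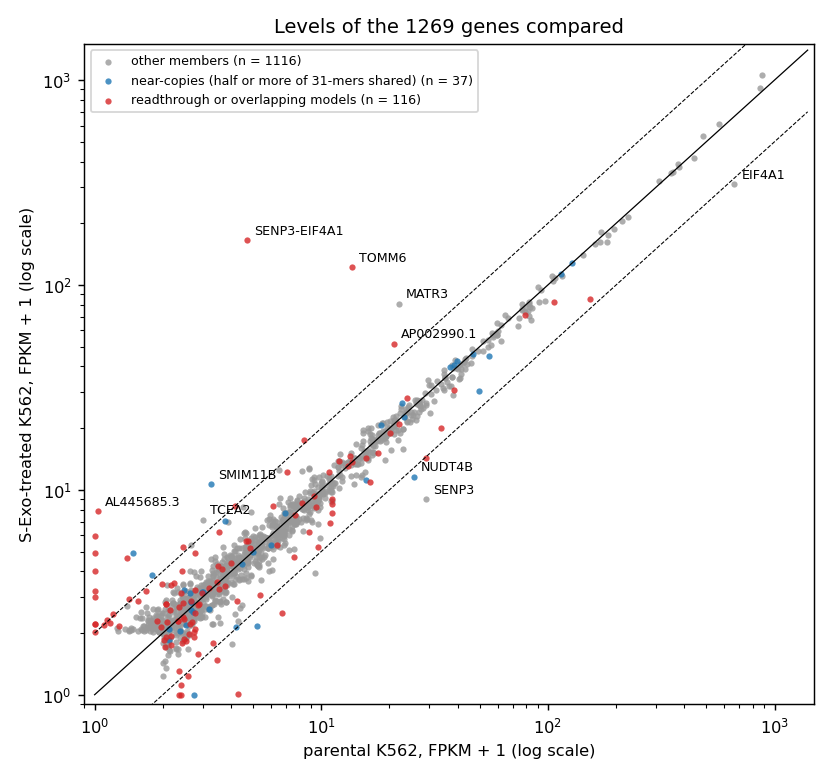
Each point is 1 of the 1269 genes, with FPKM + 1 in parental K562 on the horizontal axis and in S-Exo-treated K562 on the vertical axis, both on log scales. The solid line marks equal values and the dashed lines a factor of 2. Readthrough or overlapping models (red, 116 genes) lie outside the dashed lines more often than the 1116 other members (grey).

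The genes past the limit were mostly gene models that share exons with a neighbour. A readthrough model is an annotated transcript that runs from one gene into the next and is given an identifier of its own. It shares exons with the genes it joins, and reads from shared exons cannot be assigned to one of the models by sequence alone. A member was set apart when GENCODE 29 tags it as readthrough, when its symbol joins the symbols of a pair of genes, or when at least 50% of its exonic bases are exonic in another gene on either strand. This held for 116 members (9.14%), 69 of them readthrough models and 47 set apart by overlap alone. They made up 27 of the 40 members past the limit, which is 67.5% (exact binomial 95% interval 50.9% to 81.4%, counting error over genes only). Models that share exons are not independent of each other, and the interval does not take this into account. Some of the 27, such as BCL2L2-PABPN1, were listed at 0 in one library and so passed the limit by construction. With a minimum of 5 FPKM the share was 53.3%. Of the 116 members set apart, 23.3% were past the limit, and of all 1269 members 3.15% were.

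A further 37 members share at least 50% of the 31-base stretches of their annotated transcripts with another gene without overlapping it to that extent. This measure was added after the values had been seen. Most are members of families of near-identical copies, and 6 of the 40 genes past the limit were among them. The remaining 1116 members held 7 of the 40, which is 0.627% of them. Of these 7, SENP3, EIF4A1 and one MATR3 model share 39.4%, 44.8% and 43.9% of their 31-base stretches with other genes, below the threshold of 50%. BEST1 shares 14.2% of its exonic bases with a neighbouring gene and 5.63% of its stretches with other genes. HIST1H3F, a histone gene, has no shared exonic base and shares 6.3% of its stretches. TCEA2 and TEAD1 were the only ones of the 40 genes with no shared exonic base and under 5% of their stretches shared, against 501 such genes among the 1269 members.

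The size of the differences went with the share of sequence that a gene has in common with other genes. Among 840 members with under 5% of their 31-base stretches shared, the median absolute difference was 0.12 and the standard deviation over genes 0.23. Among the 66 members with 90% or more shared, the median absolute difference was 0.48 and the standard deviation 1.05. The counts past the limit were 2 of 840 and 20 of 66.

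Among the sequences that can tell a readthrough model from its parts are its joins. These lead from an exon of the upstream gene to the next exon of the joint model. Of the 5 readthrough models among the 8 set apart that are named here (the largest differences at 5 FPKM or more), 3 had a join between protein-coding genes on one strand that could be read, and these are shown from GENCODE 29 transcripts, 15 bases on each side. The end of the upstream exon is in lower case and the first bases of the next exon are in capitals. That next exon overlaps an exon of the downstream gene, but in SENP3-EIF4A1 the capitals themselves lie upstream of the annotated start of EIF4A1 (position 7572706). Coordinates are on GRCh38 and give the last base before and the first base after the join. All 3 joins lie in coding sequence, and these 30 bases were found in 0 other genes of that annotation.
SENP3-EIF4A1 (chr17:7571479-7572284, plus strand): ctgcaaactcactgtCCAGGGGAATCCTCC
AP002990.1, TUT1 to EEF1G (chr11:62574908-62576657, minus strand): atgtggagcccctcaTTCGCACAGCTCGAG
HNRNPUL2-BSCL2 (chr11:62707324-62715500, minus strand): caatacaatcgggatGGACCCTCCATTTTC

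SENP3-EIF4A1 had the largest difference of all members. It joins SENP3, which encodes a nucleolar SUMO protease, to EIF4A1, which encodes the RNA helicase of the cap-binding translation initiation complex. The readthrough model had 165 FPKM in S-Exo, 3.71 in parental, 0.237 in resistant and 0.489 in R-Exo, so the S-Exo library alone was high. In the same libraries EIF4A1 had 308 FPKM in S-Exo, 663 in parental, 648 in resistant and 716 in R-Exo. SENP3 had 8.02 FPKM in S-Exo, 27.9 in parental, 30.7 in resistant and 29.8 in R-Exo. Both single genes were thus lowest in the library in which the joint model was highest. The log2 differences between S-Exo and parental were 5.14 for SENP3-EIF4A1, -1.10 for EIF4A1 and -1.68 for SENP3. Added together, the 3 models had 694 FPKM in parental and 481 FPKM in S-Exo, a log2 difference of -0.53. Weighted by exonic length in GENCODE 29, the difference was -0.69. The authors' own lengths are not known here, and a gene without a coding annotation that overlaps EIF4A1, AC016876.2, was not analysed here. EIF4A1 is the only gene past the limit among the 5 members with the highest mean FPKM.

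The gene for matrin 3, a nuclear RNA-binding protein, is annotated under 2 identifiers with the symbol MATR3. The first model, ENSG00000280987, is tagged as readthrough, with 152 FPKM in parental, 84.3 in S-Exo, 57.5 in resistant and 72.8 in R-Exo. The second model, ENSG00000015479, had 21.0 FPKM in parental, 79.9 in S-Exo, 92.1 in resistant and 71.0 in R-Exo. In the parental library the first model was much the higher, and in S-Exo both were nearly equal. The models moved in opposite directions between parental and S-Exo, by -0.84 and 1.88. Their sum was 173 FPKM in parental and 164 FPKM in S-Exo, a difference of -0.07. Weighted by exonic length, the sum differed by 0.30 in the other direction.

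HNRNPUL2-BSCL2 joins a nuclear ribonucleoprotein gene to BSCL2, which encodes seipin, a protein of lipid droplet formation. The joint model had 7.404 FPKM in parental, 16.4 in S-Exo, 7.78 in resistant and 7.74 in R-Exo, and was high in S-Exo alone. BSCL2 had 27.8 FPKM in parental and 13.2 in S-Exo, against 5.30 in resistant and 5.05 in R-Exo. The summed models had 35.2 FPKM in parental and 29.7 FPKM in S-Exo, a log2 difference of -0.24. AL445685.3, a readthrough model over TXNDC12 and KTI12, had 6.89 FPKM in S-Exo, 0.0309 in parental, 0.673 in resistant and was listed at 0 in R-Exo. KTI12, which encodes a protein associated with the Elongator complex, had 5.93 FPKM in S-Exo, 9.89 in parental, 16.2 in resistant and 15.5 in R-Exo. Its value was again lowest where the joint model was highest, and the sum of both differed by 0.34.

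**Figure D2:**
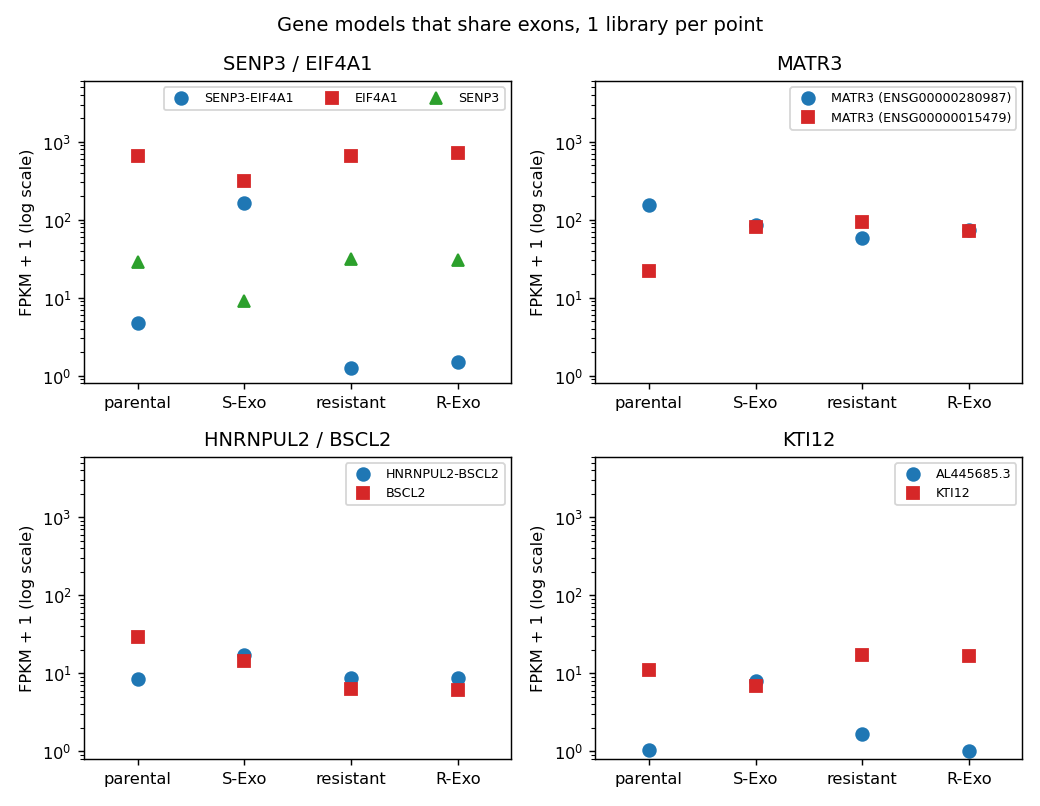
FPKM + 1 on a log scale of gene models that share exons, in each of the 4 libraries, with 1 library per point. In S-Exo the SENP3-EIF4A1 model is high (165 FPKM) while EIF4A1 (308 FPKM) and SENP3 (8.02 FPKM) are at their lowest, and the 2 MATR3 models are nearly equal in S-Exo but far apart in parental.

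In all, 90 groups of 2 or more overlapping models of the table held a member, and 16 of these groups held 20 of the 40 genes past the limit. After the models of a group were added together, 0 of the 16 groups differed by 1 or more, both as plain sums and as length-weighted sums. For some groups this outcome was fixed by size. AC092647.5, for one, made up 1.88% of its group's sum in S-Exo. Partners outside the table, such as TXNDC12, were not added. The count of 0 therefore does not show how reads were assigned. In 8 of the 90 groups, members differed by 0.5 or more in both directions. For 11 of the genes past the limit that were set apart, no overlapping partner in the table was found, so no sum could be formed.

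TOMM6, which encodes a small subunit of the mitochondrial outer membrane translocase, was one of these 11. It had 121 FPKM in S-Exo, 12.6 in parental, 17.96 in resistant and 51.8 in R-Exo, a 9.57-fold ratio between S-Exo and parental. All of its exonic bases and all of its 31-base stretches are shared with other genes. The overlapping models AL365205.1 and USP49 were not analysed here. AP002990.1, which joins TUT1, a terminal uridylyltransferase gene, to the elongation factor gene EEF1G, had 50.6 FPKM in S-Exo and 19.9 in parental, below 89.2 in resistant and 73.5 in R-Exo. TREX2, a 3' exonuclease gene that shares 52.1% of its exonic bases with HAUS7, had 1.5 FPKM in S-Exo against 5.74 in parental, 9.48 in resistant and 4.96 in R-Exo. AL031281.2 overlaps CDC42, a small GTPase gene, and had 7.36 FPKM in S-Exo against 3.16 in parental. CDC42 itself had 81.6 FPKM in S-Exo and 105 in parental.

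In one pair of near-identical copies the differences ran in opposite directions. CSAG2 had 2.75 FPKM in parental and 6.07 in S-Exo, while its copy CSAG3 had 14.7 in parental and 10.2 in S-Exo. Both are cancer-testis antigen genes on the X chromosome. The sum of the pair was 17.5 FPKM in parental and 16.2 in S-Exo, a difference of -0.10. GAGE12J, another cancer-testis antigen gene, had 48.8 FPKM in parental and 29.3 in S-Exo, with 71.8 in resistant and 68.0 in R-Exo. NUDT4B, a copy of a gene for a diphosphoinositol phosphatase, had 24.6 FPKM in parental and 10.6 in S-Exo, and 9.56 and 7.07 in resistant and R-Exo. SMIM11B had 2.25 FPKM in parental and 9.65 in S-Exo, with 0.301 in resistant and 7.32 in R-Exo. SMIM11B was therefore high in both libraries of cells given vesicles, and 91.5% of its 31-base stretches occur in another gene, so its value is uncertain. The other copies past the limit were LIMS3 and CT45A8, both lower, and NBPF26 and NPIPA3, both higher, all under 5 FPKM in S-Exo and in parental.

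Among genes that reached 5 FPKM in either library and were not set apart, TCEA2 had the highest difference of those with no shared exonic base and under 5% of their stretches shared. TCEA2 encodes a transcription elongation factor of the TFIIS family. It had 6.15 FPKM in S-Exo, 2.0 in parental, 3.64 in resistant and 3.37 in R-Exo, a 3.07-fold ratio and a log2 difference of 1.25. The S-Exo library was the highest and the parental library the lowest of all. TEAD1, a transcription factor gene of the Hippo pathway, had 0.760 FPKM in S-Exo and 3.03 in parental, and 0.267 and 0.270 in resistant and R-Exo. Its difference was -1.20, and it was named after its values had been seen, since it lies under 5 FPKM.

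The next genes stayed under the limit. SYNGR3, which encodes a synaptic vesicle membrane protein, had 11.6 FPKM in S-Exo and 5.54 in parental, a difference of 0.94. ITPK1, an inositol phosphate kinase gene, had 7.23 and 3.54 FPKM (0.86), and LPGAT1, a lysophospholipid acyltransferase gene, had 5.94 and 2.86 FPKM (0.85). With a pseudocount of 0.1 in place of 1, these 3 genes passed the limit, at 1.05, 1.01 and 1.03. AKAP9, which encodes a centrosomal and Golgi scaffold of protein kinase A, had 6.77 FPKM in S-Exo and 3.90 in parental, against 16.8 in resistant and 23.7 in R-Exo. PHLDA2, an imprinted growth regulator, had 11.4 and 7.20 FPKM. MED30, a Mediator subunit gene, had 11.8 and 7.83, and IMMP2L, a gene for a mitochondrial inner membrane peptidase, had 11.7 and 7.85. For both of the latter, the S-Exo value was the highest of the 4 libraries. GAD1, S100A1, TLE2 and HIST2H2BF completed the 15 highest, with differences between 0.40 and 0.47.

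On the lower side, BEST1, which encodes a chloride channel, had 2.94 FPKM in S-Exo, 8.37 in parental, 2.35 in resistant and 12.3 in R-Exo. It shares 14.2% of its exonic bases with FTH1, the ferritin heavy chain gene on the opposite strand, and the kit in the labels is not described there as strand-specific. CMC1, a gene for a mitochondrial protein of cytochrome oxidase assembly, had 4.85 FPKM in S-Exo and 8.83 in parental, a difference of -0.75. NPL, a sialic acid lyase gene, had 4.15 and 6.58 FPKM (-0.56), and S100A6, a calcium-binding protein gene, had 14.8 and 22.0 FPKM (-0.55). QSOX1, a sulfhydryl oxidase gene, had 5.85 and 8.70 FPKM, and CIB2, a calcium- and integrin-binding protein gene, had 4.09 and 6.22 FPKM. In NPL, QSOX1 and CIB2 the S-Exo value was the lowest of the 4 libraries, while S100A6 was lower still in resistant (4.50) and R-Exo (4.46). The rest of the 15 lowest were RWDD3, KIAA0391, PUS10 and HILPDA, with differences between -0.57 and -0.40, beside SENP3, EIF4A1, NUDT4B, GAGE12J and CSAG3. Of the 15 lowest, 2 (NPL and QSOX1) had no shared exonic base and under 5% of their stretches shared, against 8 of the 15 highest. CMC1 shares 33.4% of its exonic bases with AZI2, and RWDD3 49.2% with TMEM56-RWDD3.

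**Figure D3:**
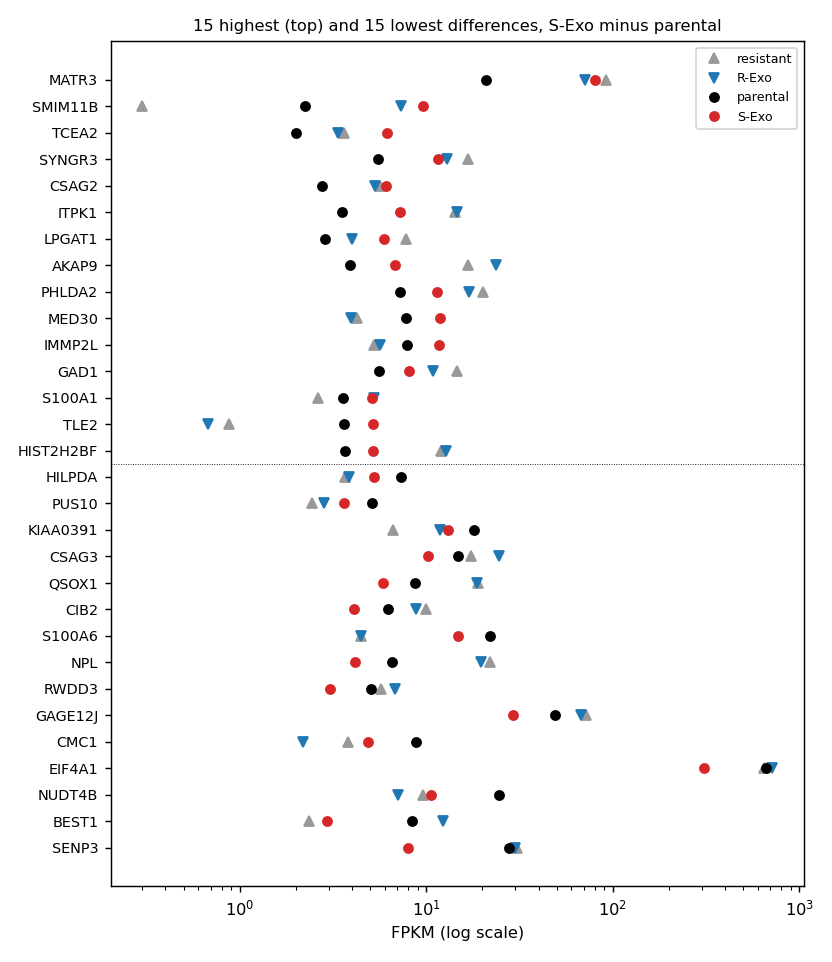
FPKM on a log axis in the 4 libraries for the 15 genes with the highest and the 15 with the lowest difference between S-Exo (red) and parental (black), among genes that reached 5 FPKM in either and were not set apart. Red and black points lie close together for most genes, and for many of them the resistant and R-Exo points lie farther away.

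Genes were also grouped into lists by function, lineage or pathway. The lists numbered 33, of which 28 held a compared member and 15 held at least 5. Together they covered 154 distinct members, of which 1 was higher (HIST1H3F) and 1 lower (EIF4A1), beside 25 higher and 15 lower (3.15% together) of all 1269 members. The list medians ran from -0.14 to 0.15, beside -0.0014 over all members. Of the listed genes 96.8% differed by less than 0.5, beside 90.8% of all members. Among the 1116 members neither set apart nor near-copies, 95.1% did and 0.627% were past the limit. Most genes of every list were not in the table, so the medians describe the listed members only.

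Vesicle handling was represented by 2 lists. In the list of endocytosis and vesicle uptake, 6 of 41 genes were compared, 0 were past the limit and the median was -0.14. Of the 6, 5 lay below 0 and 1 above, with CDC42, one of the models set apart, at -0.37, the scavenger receptor gene CD36 at 31.2 FPKM in S-Exo against 36.2 in parental, and the early endosome GTPase gene RAB5A at 26.2 against 30.3. Exosome formation and tetraspanin genes gave 4 compared members of 45, all between -0.09 and 0.07. RAB31, a GTPase gene of endosomal vesicle formation, had 32.8 FPKM in S-Exo and 35.0 in parental. The tetraspanin gene CD9 had 2.94 and 3.13, and MFGE8, which encodes the vesicle-binding protein lactadherin, had 17.97 and 17.1.

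For signalling and stress genes, the list of ERK feedback and immediate early genes had the highest median, 0.15, with 8 of 10 compared members above 0 and 0 past the limit. DUSP1, a MAP kinase phosphatase gene, had 3.71 FPKM in S-Exo and 2.41 in parental, the transcription factor gene ETV1 3.88 and 2.72, and the feedback inhibitor gene SPRY1 1.51 and 0.980. The median of this list was 0.02 when at least 5 FPKM were required. The 8 compared kinases around BCR-ABL and its bypass routes had a median of 0.03, with the receptor gene ERBB3 at 2.50 FPKM in S-Exo and 1.64 in parental. PIM1, a kinase gene and target of STAT5, had 93.6 and 92.4 FPKM. The 6 amino acid response and unfolded protein genes had a median of 0.03, and GDF15, a stress-induced cytokine gene, had 24.6 and 21.5 FPKM. Of 4 NF-kB and cytokine genes, IL18 had 4.26 FPKM in S-Exo and 2.70 in parental. The 11 interferon-stimulated genes had a median of 0.10 with 0 past the limit, such as IFI27L1 at 12.2 and 10.3 FPKM and IRF1 at 1.71 and 2.24 FPKM. The heat shock gene HSPA1A had 127 and 126 FPKM.

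Replication-dependent histone genes made up the list with the most compared members, 19 of 70. Of these, 15 lay above 0 and 4 below, with a median of 0.09, and 1 passed the limit. That gene, HIST1H3F, had 4.40 FPKM in S-Exo and 1.65 in parental, against 4.71 in resistant and 3.37 in R-Exo. Most transcripts of these genes carry no poly-A tail, and the libraries were made from poly-A RNA, so their levels are uncertain. The 14 compared genes of the cancer-testis antigen list had a median of 0.00 and the widest range, from GAGE12J at -0.72 to CSAG2 at 0.92. Both of these are near-copies. CT45A8, a near-copy of the same kind that was not in the list, had 1.15 FPKM in S-Exo and 4.23 in parental, a difference of -1.28.

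Lineage and metabolic lists had medians between -0.07 and 0.08. The 10 erythroid and globin genes had a median of -0.04, with LMO2, a gene for a transcription cofactor of blood cell formation, at 10.8 FPKM in S-Exo and 14.2 in parental. The 5 megakaryocyte and platelet genes had a median of -0.07, and the 5 ribosomal protein genes 0.08, with RPS27 at 611 and 570 FPKM. Drug metabolism and glutathione genes (8 compared) had a median of 0.02, BCL2 family and cell death genes (5 compared) 0.03 and p53 targets (5 compared) -0.03. Glycolysis and hypoxia genes (5 compared) had a median of -0.04, and TGF-beta, BMP and Wnt genes (6 compared) 0.01. The mitochondrially encoded gene MT-ND3, a subunit of complex I and the member with the highest level, had 1060 FPKM in S-Exo and 877 in parental, against 579 in resistant and 1196 in R-Exo.

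**Figure D4:**
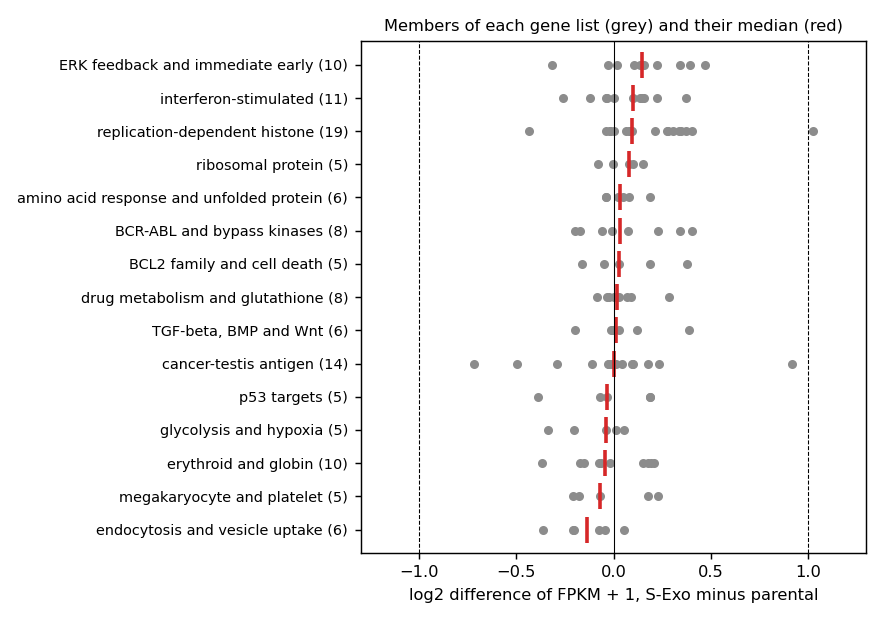
Log2 difference of FPKM + 1 between S-Exo and parental for the members of each gene list with at least 5 compared genes (grey points, number in brackets) and the list median (red). The medians lie between -0.14 and 0.15, and 1 point, HIST1H3F, lies beyond a dashed line at 1.

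The spread between S-Exo and parental was set beside that of the other library pairs over the same 1269 members. The standard deviation over genes was 0.40 for S-Exo minus parental and 0.36 for R-Exo minus resistant, which shares no library with it. It was between 1.19 and 1.21 for the 4 pairs that cross from parental or S-Exo to resistant or R-Exo. The share of members that differed by less than 0.5 was 90.8% in the first pair and 91.0% in the second. In the crossing pairs it lay between 13.3% and 16.0%, in a table that holds mostly genes with such a difference.

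**Figure D5:**
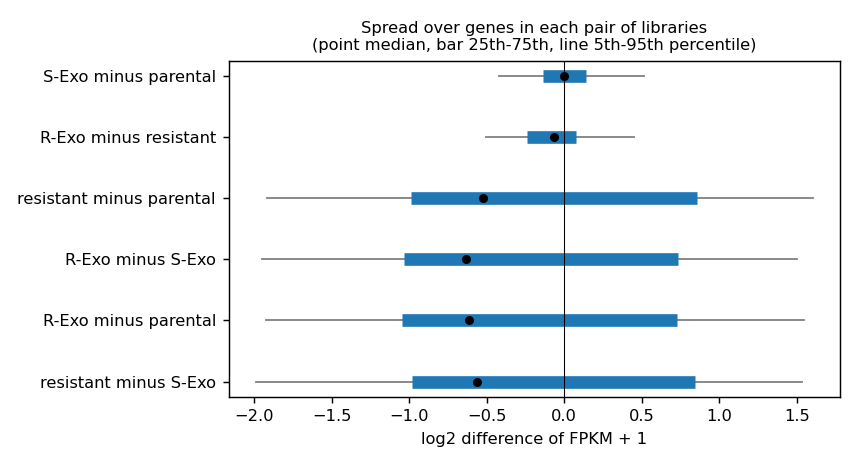
Log2 difference of FPKM + 1 over the 1269 genes in each of the 6 pairs of libraries, with the median (point), the 25th to 75th percentile (bar) and the 5th to 95th percentile (line). S-Exo minus parental and R-Exo minus resistant are narrow (quartiles -0.13 to 0.14 and -0.24 to 0.07), and the other pairs are wide.

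In R-Exo minus resistant, 16 of the members (1.26%) were past the limit upward and 13 (1.02%) downward. Of these 29, 18 were readthrough or overlapping models and 5 near-copies, against 27 and 6 of the 40 in S-Exo minus parental. Over all 1269 members the median of R-Exo minus resistant was -0.07, so most members lay below 0 in that pair. Of the 25 genes higher in S-Exo, 10 were also above 0 in R-Exo minus resistant and 4 passed the limit there. Of the 15 lower genes 9 were below 0 and 0 passed it. In each set 1 gene passed the limit in the opposite direction there, AC118553.2 at -2.81 among the higher and BEST1 at 1.99 among the lower genes, the first named after its value was seen. The 4 genes that passed it in the same direction were TOMM6, SMIM11B, NPIPA3 and AC008878.3, named after their values were seen, and each of them is a shared model or a near-copy. Across the 1269 genes, Pearson's r between both differences was 0.024 and Spearman's rho -0.06. This is a description across genes that share gene models and mapping, not a test.

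Genes that separate the lines in these libraries lay near the parental level in S-Exo. The drug efflux pump gene ABCB1 had 0.0985 FPKM in S-Exo and 0.222 in parental, against 778 in resistant and 677 in R-Exo. Of 10 named genes that reached 5 FPKM in resistant but did not exceed 0.1 in parental, 0 reached 1 FPKM in S-Exo, and the highest was CA2, a carbonic anhydrase gene, at 0.160 FPKM. Of 9 named genes with the reverse pattern, all 9 were at least 4.33 FPKM in S-Exo, at 0.813 to 1.07 times their parental level with a median of 0.953. Of these 9, SSX2 and SSX2B are near-copies and RPL17-C18orf32 is a readthrough model, and the ratio of 0.813 was that of SSX2B. CBR1, a carbonyl reductase gene also among the 9, was at 18.4 FPKM in both libraries and listed at 0 in resistant and R-Exo. EREG, the gene of the growth factor epiregulin, had 7.85 FPKM in S-Exo and 8.06 in parental, and the tyrosine kinase gene SYK had 4.33 and 5.12. The R-Exo library, though titled as K562 cells given R-Exo, lay near resistant in these genes. In it, 9 of the 10 genes reached 1 FPKM and all 9 of the reverse pattern were listed at 0. Why R-Exo lay near resistant was not tested.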

How the data were processed

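The authors deposited 1 table of FPKM values with a column for each of 4 libraries; the unit is taken from the table's name, which also says that the genes were selected as differentially expressed. Per the submitters' processing notes, the tools included SAMtools 0.1.18, GATK, Picard and TopHat2, whose roles are not stated. The counter, the genome build and the annotation are unstated in what was used here. Depth is unknown. Poly-A RNA was used, per the labels' protocols.

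Differences are log2 of (FPKM + 1) in S-Exo minus parental, over genes that reached 1 FPKM in either library. With 1 library per group no test was made. Identifiers were matched to GENCODE 29 for positions, exonic overlap and shared 31-base stretches, and 1266 of the 1269 symbols were equal there. Python 3.11.15, NumPy 2.4.6, pandas 2.3.3 and SciPy 1.17.1 were used, and the counting was tested on simulated data. Named were the 15 highest and 15 lowest genes with at least 5 FPKM and not set apart, the 8 largest differences among models set apart at the same level, the 5 most abundant members, up to 3 genes per list, and ABCB1. The genes, lists and limits were chosen with earlier results of these data known. Some marker genes are not reported here.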

Additional observations from a re-analysis of the deposited data

How the results depend on the processing

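No paired analysis was possible because each group had 1 library. The counts of 25 higher and 15 lower genes depended on the scale and on which models were kept. With a pseudocount of 0.1 they were 54 and 30, of which 48.8% were readthrough or overlapping models. With a minimum of 5 FPKM they were 9 and 6, of which 53.3% were readthrough or overlapping models. Without readthrough and overlapping models they were 6 and 7, and without near-copies as well, a choice made after seeing the data, 3 and 4. Counting any shared exonic base as overlap put 82.5% of the 40 genes among overlapping models. No minimum, re-scaling to a median of 0, quantile normalization (22 and 15) and the inclusion of unnamed rows (28 and 21) left the counts within 1.5 times. Under quantile normalization BSCL2 (-0.96) and AL031281.2 (0.98) were no longer past the limit. The median difference stayed within 0.1 of its value under every alternative run for it. Some list medians near 0 changed sign, such as that of BCL2 family and cell death genes, 0.03 and under quantile normalization -0.03. None of the named genes for which alternatives were run changed sign, but MT-ND3 and RPS25 were at 0 under quantile normalization. The other genes past the limit, TEAD1 among them, were not run singly. Depth is unknown, so differences among genes of low level cannot be set against counting error.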

Other observations

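The table also held 912 rows with a running number and no gene name, of which 454 reached 1 FPKM in S-Exo or parental. Of these, 3 were higher and 6 lower in S-Exo at the limit of 1, and 87.9% differed by less than 0.5. Their median difference was 0.05.

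Chromosome medians were close to each other. Among the 19 chromosomes with at least 30 members, the median difference lay between -0.08 (chromosome 13) and 0.06 (chromosome 4). Chromosome 7, which carries ABCB1, had 102 members with a median of -0.03. Members with short exonic sequence differed more: 5.20% of the shortest 423 genes (up to 3182 bases) were past the limit, against 1.42% of the longest 423 (5688 bases or more). Whether this goes with the sequence shared between genes was not tested.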
